A study of Mus musculus with 8 samples.

Results

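Cadherin and protocadherin genes were examined for peaks of KLF13, a zinc finger transcription factor of the Krüppel-like family, in a deposited list of KLF13 peaks. Members were the peaks assigned to a gene whose symbol begins with Pcdh or with Cdh and a digit, or is Celsr1 to Celsr3, Fat1 to Fat4, Dchs1 or Dchs2. The rule took 28 of 9506 peaks, assigned to 23 genes. Of these, 27 peaks belonged to 22 non-clustered genes and 1 to a clustered gene, Pcdhac2. The study used HT22, an immortalised mouse hippocampal neuronal line, in its HT22-BirA derivative, which stably makes the bacterial biotin ligase BirA. All 8 libraries, inputs included, came from such cells transfected with the pTO-Klf13Bio plasmid, so KLF13 was supplied from a plasmid in a form that BirA biotinylates. In 4 libraries, chromatin taken 24 h after transfection was precipitated on streptavidin (chromatin streptavidin precipitation, ChSP), and the other 4 were input chromatin without precipitation. Cells without tagged KLF13 were not among the groups, so capture on streptavidin that does not depend on KLF13 cannot be told apart from KLF13 binding. The list gives 1 fold of ChSP over input per peak for all libraries together. Read depth and the spread between libraries are therefore unknown, no fold below has a replicate error, and the neuronal label could not be checked against markers.

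Cadherins are calcium-dependent adhesion proteins. Classical cadherins join like cells and hold the actin cytoskeleton through catenins, and protocadherins give weaker but very specific contacts at dendrites, axons and synapses. Most protocadherins are encoded by the tandem Pcdha, Pcdhb and Pcdhg arrays, from which each neuron transcribes a few isoforms by choice among promoters. Celsr proteins and the very large Fat and Dachsous cadherins act in planar cell polarity and tissue growth.

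KLF and Sp factors bind GC boxes, with the core GGGCGG, and CACCC boxes. The 250 bases before the RefSeq start of 5 family genes are shown 5′ to 3′ on the gene's strand, with every match to GGGCGG or CACCC on either strand in capitals (GRCm38.p6). Pcdh19 had one of the 3 highest promoter folds, and Cdh24 came first by symbol among the members with most GC box cores. Celsr2 is shown because the whole stretch lay in its peak, and Fat3 and Dchs2 because their RefSeq starts lay in peaks that the authors' annotation placed far from any start. These last 3 were chosen after their values were seen.
Pcdh19, chrX:133688994-133689243, minus strand: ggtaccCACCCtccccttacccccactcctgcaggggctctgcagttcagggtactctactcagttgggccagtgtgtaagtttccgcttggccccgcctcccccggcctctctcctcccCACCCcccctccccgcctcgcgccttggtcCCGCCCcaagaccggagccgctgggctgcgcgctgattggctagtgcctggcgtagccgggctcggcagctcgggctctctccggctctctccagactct
Cdh24, chr14:54641365-54641614, minus strand: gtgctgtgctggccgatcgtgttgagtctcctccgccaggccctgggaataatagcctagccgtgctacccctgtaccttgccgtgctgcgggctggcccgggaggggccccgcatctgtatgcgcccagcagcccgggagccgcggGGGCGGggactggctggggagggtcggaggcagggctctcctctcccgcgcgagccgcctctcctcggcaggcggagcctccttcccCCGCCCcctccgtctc
Celsr2, chr3:108415580-108415829, minus strand: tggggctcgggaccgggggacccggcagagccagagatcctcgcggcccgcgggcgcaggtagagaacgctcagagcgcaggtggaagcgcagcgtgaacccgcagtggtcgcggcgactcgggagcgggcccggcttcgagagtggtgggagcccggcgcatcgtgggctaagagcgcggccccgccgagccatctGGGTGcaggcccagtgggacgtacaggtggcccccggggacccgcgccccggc
Fat3, chr9:16502055-16502304, minus strand: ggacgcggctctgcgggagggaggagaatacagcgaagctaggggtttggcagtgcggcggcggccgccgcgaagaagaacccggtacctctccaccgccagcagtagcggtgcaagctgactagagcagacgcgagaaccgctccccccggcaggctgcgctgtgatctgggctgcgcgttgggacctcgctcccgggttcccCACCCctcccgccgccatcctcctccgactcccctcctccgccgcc
Dchs2, chr3:83127277-83127526, plus strand: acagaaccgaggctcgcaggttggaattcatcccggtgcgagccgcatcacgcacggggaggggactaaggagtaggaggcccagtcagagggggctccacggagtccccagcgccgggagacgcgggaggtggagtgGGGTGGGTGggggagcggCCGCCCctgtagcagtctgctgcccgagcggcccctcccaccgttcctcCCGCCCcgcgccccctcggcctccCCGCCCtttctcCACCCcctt
Peaks covered 236 of the 250 bases at Cdh24, 250 at Celsr2, 246 at Fat3 and 226 at Dchs2, and 0 at Pcdh19, whose peak lay 293 bases downstream of the start. The stretch of Dchs2 held 3 GC box cores and that of Cdh24 held 2, while those of Celsr2 and Fat3 held 0 and 1 CACCC each.

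The first question was which family genes carried a peak at a promoter, meaning no more than 1 kb from a transcription start in the authors' annotation. Of the 44 non-clustered protein-coding genes 16 had one (36.4%, exact 95% binomial interval 22.4 to 52.2), against 30.9% of all 21900 protein-coding genes. The interval holds the background, so by this rule the non-clustered genes were near the share of genes in general. Of the 57 clustered protein-coding genes 1 had one (1.75%, interval 0.0444 to 9.39), below the same background. Over all 101 genes the share was 16.8% (17 genes, interval 10.1 to 25.6). Any assigned peak, at whatever distance, was found at 22 of 44 non-clustered genes (50%, interval 34.6 to 65.4), against 33.6% of all genes, which lies just below the interval. These intervals cover counting error only, and neighbouring genes of an array are not independent.

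Folds at these promoters lay near the median of promoter peaks in general. The 18 member promoter peaks had a median fold of 20.3 (95% binomial rank interval 15.1 to 23.1), against 22.2 over all 7599 promoter peaks, and ran from 8.13 to 24.7. None of the 18 exceeded the upper quartile of all promoter peaks, 30.3, and 5 lay below the lower quartile, 16.5. The highest folds of the family lay instead beyond 1 kb of an annotated start, at Fat1, Pcdh1 and Pcdh8. Those of Pcdh1 and Pcdh8 lay 1 to 3 kb from a start, and the Pcdh1 peak overlapped the RefSeq 5′ end of its gene. The lack of folds above 30.3 thus holds only within 1 kb of the starts used by the authors' annotation. Of the 28 member peaks 64.3% were at promoters (interval 44.1 to 81.4), against 79.9% of all 9506, and 5 (17.9%) lay 1 to 3 kb from a start, against 4.21%. Within 3 kb of a start the shares were close, 82.1% of member peaks and 84.1% of all peaks. The median width was 600 bp for members (200 to 1700 bp) and 600 bp for all peaks.

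**Figure D1:**
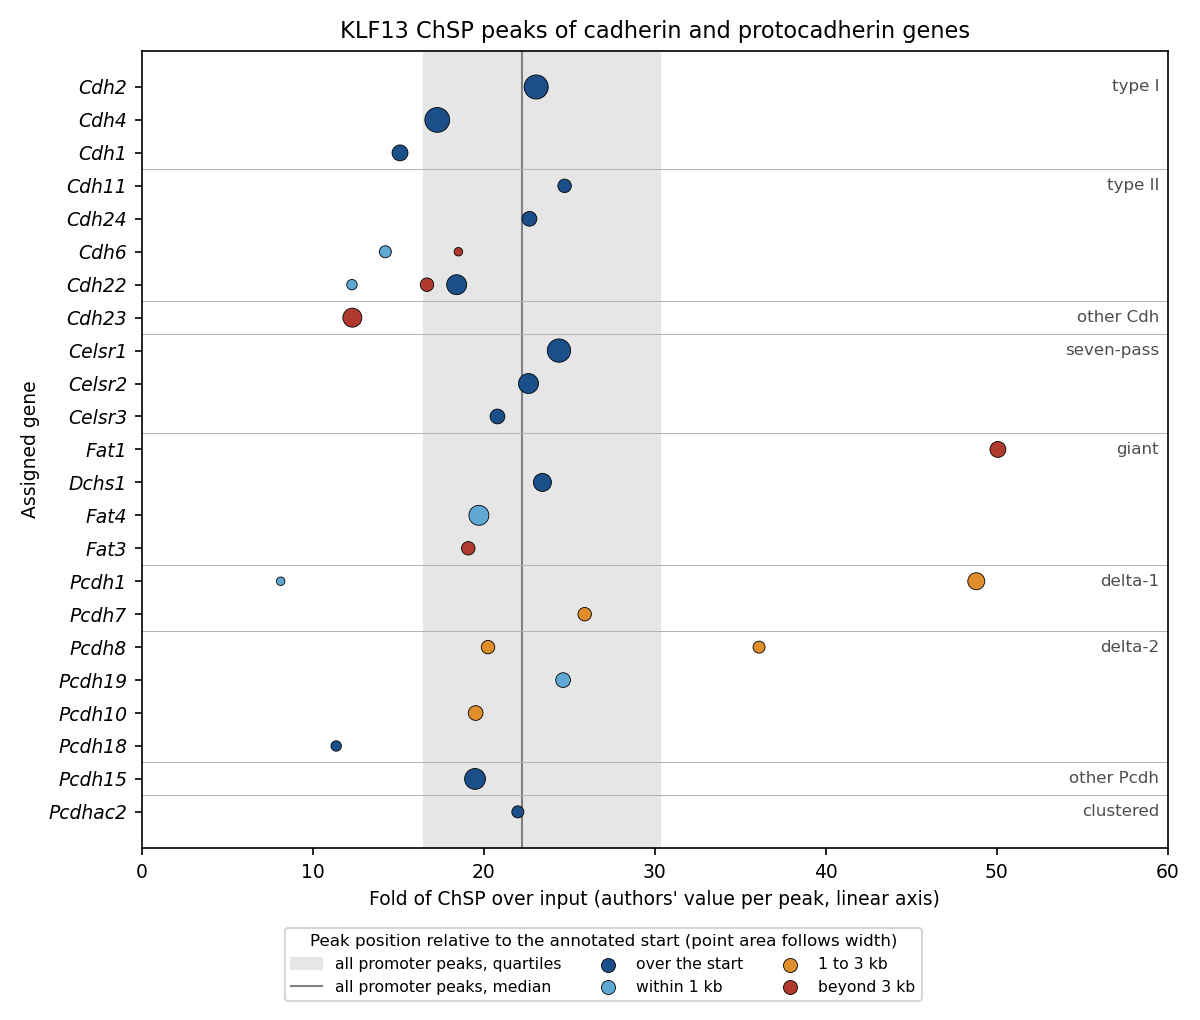
Fold of ChSP over input (linear axis, the authors' values) for each of the 28 peaks, by assigned gene and subgroup, with colour for the distance to the annotated start and point area following peak width; the grey band and line are the quartiles and median of all promoter peaks. The 18 blue promoter points lie at or below 24.7, and the 3 points above 30.3 are an intergenic peak of Fat1 and peaks 1 to 3 kb from the starts of Pcdh1 and Pcdh8.

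Among classical type I cadherins, which carry strong homophilic adhesion, 3 of 5 genes had a promoter peak, each over the start. The interval of 14.7 to 94.7% holds the background of 30.9%, and without the 5% widest peaks 1 of 5 genes had one. Cdh2 (ENSMUSG00000024304) encodes N-cadherin, the main classical cadherin of neurons, and had a fold of 23.1 in a peak of 1600 bp at chromosome 18, 16808101 to 16809700 (the authors' p = 5.19e-16). Cdh4, which encodes R-cadherin, had 17.3 in the widest member peak, 1700 bp, at chromosome 2, 179442101 to 179443800. Cdh1, the epithelial E-cadherin gene, had 15.1 at chromosome 8, 106603301 to 106604000 (the authors' p = 6.52e-12). Its fold was lower than those of 80.5% of promoter peaks.
Cdh3 and Cdh15, which encode P-cadherin and M-cadherin, had no assigned peak.

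Type II cadherins sort neurons and other cells into groups, and 4 of 13 had a promoter peak (30.8%, interval 9.09 to 61.4). That share was near the background of 30.9%. Cdh11, the osteoblast cadherin gene that brain also expresses, had the highest promoter fold of the family, 24.7, at chromosome 8, 102784801 to 102785300 (the authors' p = 1.23e-10). Cdh24 had 22.7 over its start, in the stretch printed above. Cdh22 had 3 peaks, more than any other member. One of 1100 bp with a fold of 18.4 covered the distal start, one with 12.3 lay 59 bases downstream of the start of a shorter transcript, and one with 16.7 lay in an exon 39.2 kb downstream of that start. Cdh6, a cadherin gene of kidney and brain, had a fold of 14.3 at 175 bases downstream of its start and of 18.5 in an intergenic peak 209.9 kb upstream. That distant peak was 200 bp wide, the smallest width in the list, and had the authors' p of 4.63e-06. No peak was assigned to Cdh5, Cdh7, Cdh8, Cdh9, Cdh10, Cdh12, Cdh18, Cdh19 or Cdh20.

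The remaining cadherins had 0 promoter peaks among 5 genes. Cdh23, a component of the tip links of hair cells, had 1 peak with a fold of 12.3, in the 5′ UTR by the authors' annotation, 8.89 kb downstream of its start. Cdh13, Cdh16, Cdh17 and Cdh26 had none. The share of 0 of 5 allows up to 52.2%, which holds the background.

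All 3 Celsr genes had a promoter peak over the start, an exact 95% interval of 29.2 to 100% that holds the background of 30.9%. They encode the vertebrate homologues of fly Flamingo, which guide axon tracts and orient cells in an epithelium. Celsr1 had a fold of 24.4 at chromosome 15, 86033001 to 86034500, Celsr2 had 22.6 at chromosome 3, 108415201 to 108416300, and Celsr3 had 20.8 at chromosome 9, 108825901 to 108826500. Celsr1 and Celsr2 had wide peaks, of 1500 and 1100 bp, and that of Celsr3 was 600 bp.

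The giant cadherins had promoter peaks at 2 of 6 genes by the authors' annotation (33.3%, interval 4.33 to 77.7). That share was near the 30.9% of all protein-coding genes. Dchs1, the ligand of Fat4, had a fold of 23.4 over its start at chromosome 7, 105787001 to 105787900. Its receptor gene Fat4 had 19.7 in a peak of 1100 bp that ended 540 bases before the start. Both genes of this ligand and receptor pair carried a peak, which describes these 2 genes only. Fat1, an actin regulator and tumour suppressor, had the highest fold of the family, 50.1, higher than 97.4% of all peaks, at chromosome 8, 44937801 to 44938500 (the authors' p = 4.59e-18). Fat3, which shapes dendrites of retinal neurons, had 19.1 at chromosome 9, 16501801 to 16502300. Fat2 and Dchs2 had no assigned peak.

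For several of these genes the position of a peak turned on the gene model. The authors' annotation called the Fat3 peak intergenic, 123.6 kb upstream of the start it used. In the RefSeq tables the same peak covered a Fat3 start and lay 0.381 kb from the gene's 5′ end. The Fat1 peak, called intergenic at 11.7 kb upstream, lay inside the RefSeq bounds of Fat1, 4.70 kb from the 5′ end and 11.7 kb from the Fat1 start in the promoter table. At Pcdh1 the stronger of its peaks, 1.74 kb upstream of the annotated start, overlapped the RefSeq 5′ end. In the other direction, the promoter peak of Pcdh15 was 721667 bases from the Pcdh15 start in the promoter table. That peak lay inside the RefSeq bounds of Pcdh15, 2.72 kb from the 5′ end. A pair of peaks assigned to Plrg1 at 71.8 and 72.4 kb lay at the Dchs2 start. The first, with a fold of 17.5, covered that start, and the second, with 9.13, lay 374 bases from it.
Counting a peak within 1 kb of either end of a gene, whatever gene it was assigned to, also gave 16 of 44 non-clustered genes, against 31.8% of all genes, but with a different make-up. Over the whole family 15 genes were shared between the rules, with Fat3 and Dchs2 gained and Cdh6 and Pcdh15 lost. With starts from the promoter table, 10 of the 29 genes with an entry there had a peak within 1 kb, against 32.9% of all genes with an entry.

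**Figure D2:**
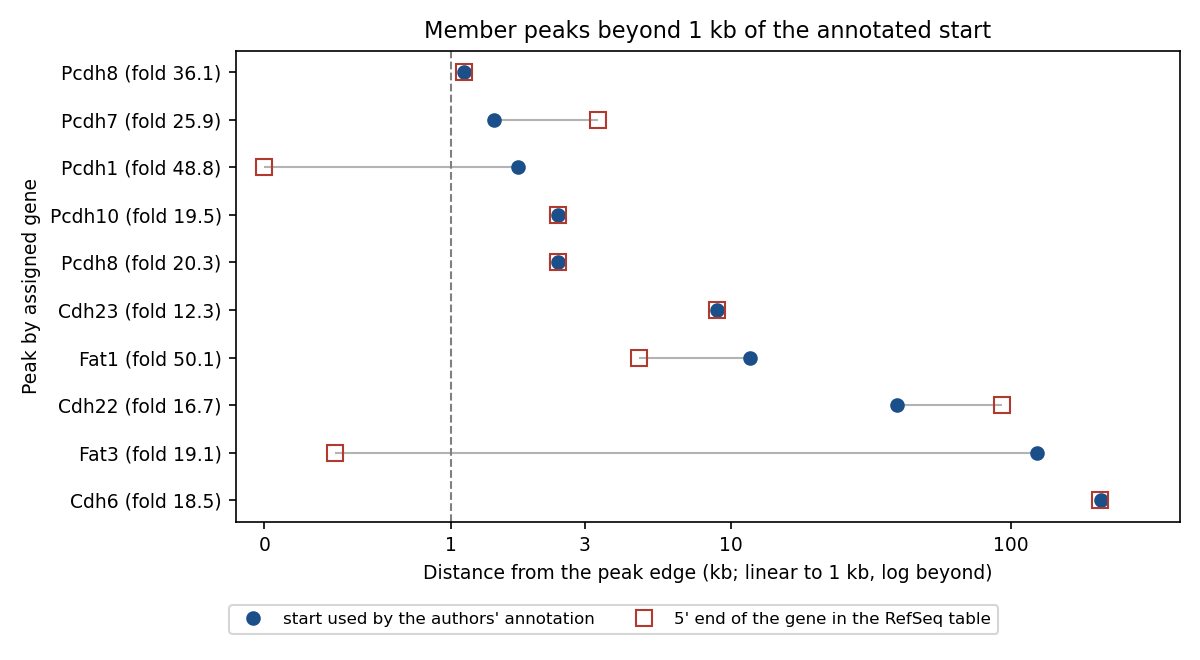
Distance from the edge of each of the 10 member peaks beyond 1 kb (axis in kb, linear to 1 kb and logarithmic beyond) to the start used by the authors' annotation (filled circles) and to the 5′ end of the gene in the RefSeq table (open squares), with the fold beside each gene; the dashed line marks 1 kb. Against the RefSeq end the peaks of Pcdh1 and Fat3 move to 0 and 0.381 kb, and that of Fat1 to 4.70 kb.

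Besides the pair at Dchs2, 6 peaks that lay in or within 1 kb of a non-clustered family gene were assigned to another gene. One with a fold of 22.2 in the 3′ UTR at the far end of Cdh22 was assigned to 1700025C18Rik. Another with 23.5, in the 3′ UTR at the far end of Cdh24, was assigned to Psmb11. A peak in an intron of Cdh4 (9.96), one over the start of Vsir inside Cdh23 (13.3), one within Dchs1 assigned to Tpp1 (16.7) and one at Gm26851 beside the Pcdh19 peak (19.8) made up the rest. These 8 peaks are not members by the rule. They enter the counts by gene ends and by the promoter table, where the pair at Dchs2 adds that gene, and no count of assigned peaks.

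Non-clustered delta protocadherins, which carry conserved cytoplasmic motifs and act in axon outgrowth and synapse formation, had 5 of their 8 peaks at 1 to 3 kb from a start, against 4.21% of all peaks. One of the 5, at Pcdh1, overlapped the RefSeq 5′ end of its gene. Of the 4 delta-1 genes only Pcdh1 had a promoter peak, and that peak had the lowest fold of the family, 8.13, in 200 bp at 139 bases upstream of the start (the authors' p = 7.40e-06). The second Pcdh1 peak, at chromosome 18, 38211501 to 38212300, had a fold of 48.8 and the smallest p of any member (2.20e-21). Pcdh7, which binds in trans through its cadherin repeats, had 25.9 at 1.42 kb downstream of its start. Pcdh9 and Pcdh11x had none. Of the 5 delta-2 genes, 2 had a promoter peak. The intervals of both delta subgroups, 0.631 to 80.6% for delta-1 and 5.27 to 85.3% for delta-2, hold the background of 30.9%. Pcdh19, an X-linked gene mutated in an epilepsy of females, had a fold of 24.6 at chromosome X, 133688101 to 133688700 (the authors' p = 1.66e-13). Pcdh18 had 11.4 over its start. Pcdh8, the gene of arcadlin, an activity-induced synaptic protocadherin, had folds of 36.1 and 20.3 at 1.11 and 2.41 kb downstream of its start. Pcdh10, which acts in synapse elimination, had 19.5 at 2.40 kb downstream, and Pcdh17 had none. Within 3 kb of a start, 19 of 44 non-clustered genes had an assigned peak (43.2%, interval 28.3 to 59.0). The interval holds the 31.6% of all genes. The genes gained were Pcdh7, Pcdh8 and Pcdh10. The peaks of all 3 lay downstream of the start, inside the gene. Of the remaining non-clustered protocadherins, Pcdh15, the partner of Cdh23 in tip links, had 19.5 in a peak of 1200 bp over its annotated start, and Pcdh12 and Pcdh20 had none.

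The clustered protocadherins were described by position as well as by gene. Their protein-coding genes span 911.6 kb of chromosome 18, from 36930285 to 37841873, and include 14 Pcdha, 22 Pcdhb and 21 Pcdhg genes. A single peak lay in that span. It was 400 bp wide, had a fold of 22.0 (the authors' p = 8.79e-08), and covered the start of Pcdhac2 at 37143701 to 37144100. Pcdhac2 is the last variable exon of the alpha array and one of the C-type isoforms, which neurons transcribe from both alleles and not by random choice. Its fold was close to the median of all promoter peaks, and higher than those of 49.0% of them. No peak lay in the beta or gamma arrays. The exact upper limits were 15.4% of 22 Pcdhb genes and 16.1% of 21 Pcdhg genes. For the 14 Pcdha genes the interval was 0.181 to 33.9%, which holds the background of 30.9%. In the 600 kb before the span lay 3 peaks, and 3 of 19 protein-coding genes there had a promoter peak. In the 600 kb after it lay 8 peaks, and 6 of 11 genes had a promoter peak, Pcdh1 included. Within the span, 5 protein-coding genes with other symbols, Gm37013, Gm38666, Gm38667, Slc25a2 and Taf7, had no promoter peak either. That made 1 of all 62 genes there. Against a background of 30.9%, 5 genes are too few to tell whether the lack extends beyond the clustered protocadherins. The variable exons resemble one another and the constant exons are shared, and the sources used here do not give the treatment of reads that match several copies. A lack of peaks in the arrays is therefore uncertain.

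**Figure D3:**
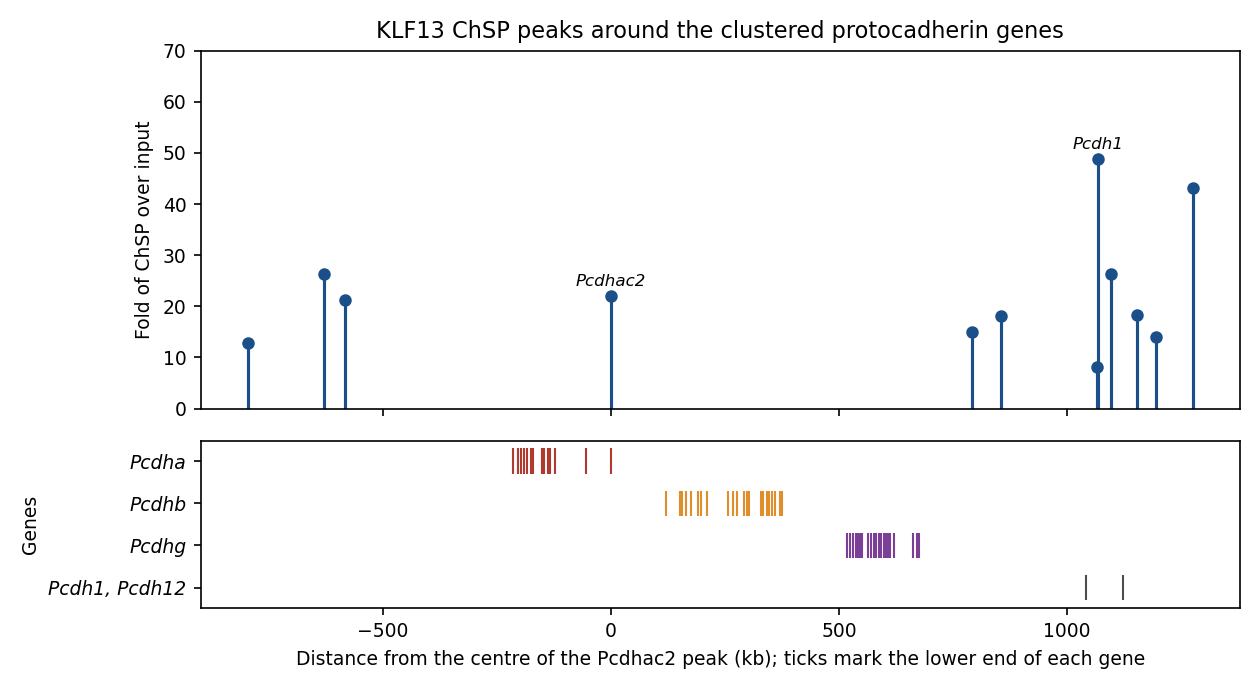
Peaks on chromosome 18 from 600 kb before to 600 kb after the clustered genes, as fold of ChSP over input (upper panel) against distance in kb from the centre of the Pcdhac2 peak, with a tick at the lower end of each protocadherin gene (lower panel). Of the 12 peaks drawn, 1 lies among the arrays, at Pcdhac2 with a fold of 22.0, and the highest is at Pcdh1.

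Genes that work with cadherins were counted in 6 lists of 62 genes, of which 41 (66.1%, interval 53.0 to 77.7) had a promoter peak by the same rule, against the background of 30.9%. Their 45 promoter peaks had a median fold of 26.2. Planar polarity partners of the Celsr and Fat proteins had one at 11 of 12 genes (91.7%, interval 61.5 to 99.8). The highest folds there were 37.0 at Fzd3, a Wnt receptor gene that acts with Celsr3 in axon tracts, 34.2 and 33.6 at the Dishevelled genes Dvl3 and Dvl1, and 31.1 at Prickle1, while Prickle3 had none. Known regulators of the protocadherin cluster had one at 9 of 11 genes (interval 48.2 to 97.7). The highest fold there, 44.5, was at the DNA methyltransferase gene Dnmt3b, whose product methylates the array promoters. Next came the cohesin genes Smc3, Stag1 and Rad21 with 32.7, 32.6 and 30.6. The cohesin gene Stag2 had the lowest promoter fold of the list, 14.9. Ctcf, which encodes the looping factor of the arrays, and Smc1a had none.
Cadherin repressors had a promoter peak at 7 of 8 genes (interval 47.3 to 99.7). Tcf3 and Tcf4, which encode E proteins, had folds of 44.3 and 41.9, Twist1 had 33.1 and Zeb1, a repressor of Cdh1, had 30.2, and Snai2 had none. Catenins and plakophilins had one at 8 of 14 (57.1%, interval 28.9 to 82.3), which holds the background of 30.9%. Ctnnb1, the gene of beta-catenin, had 55.2, Ctnna1 37.2, the afadin gene Afdn 36.1 and the neuronal alpha-catenin gene Ctnna2 22.6, and Ctnna3 and Ctnnd1 had none. Proteases that release cadherin fragments had one at 3 of 3 genes (interval 29.2 to 100), which also holds that background. Their folds were 47.1 at Adam9, 31.3 at Psen2 and 26.2 at Adam10. With peaks at either gene end, 2 of the 3 had one (interval 9.43 to 99.2). Desmosomal, calsyntenin and cadherin-related genes had a promoter peak at 3 of 14 (21.4%, interval 4.66 to 50.8), which holds the background too. The calsyntenin genes Clstn1 and Clstn2 had 42.1 and 21.2 and the desmoglein gene Dsg2 had 14.7, while Cdhr1 and Cdhr2 had none. With a peak within 1 kb of either gene end, 37 of the 62 genes had one (59.7%, interval 46.4 to 71.9), against 31.8% of all genes. By that rule the cluster regulators had 6 of 11 (54.5%, interval 23.4 to 83.3), which holds the background, while the planar polarity partners again had 11 of 12 and the repressors had 6 of 8 (interval 34.9 to 96.8). No test set these lists against the cadherins or the background. The lists were chosen with earlier results of these data known, so their intervals only describe the counts.

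**Figure D4:**
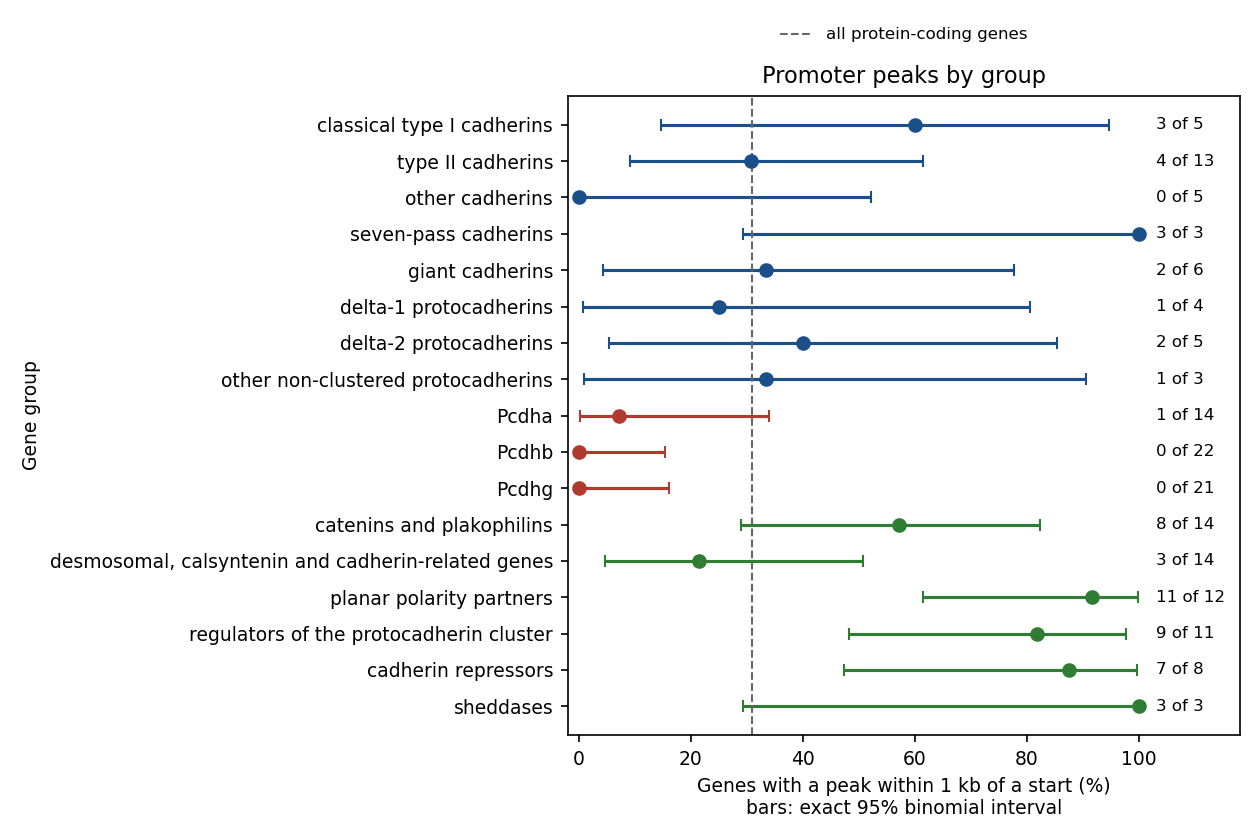
Percent of genes with a peak within 1 kb of an annotated start in each subgroup of cadherins (blue), each clustered array (red) and each partner list (green), with exact 95% binomial intervals, gene counts at the right and a dashed line at the 30.9% of all protein-coding genes. Intervals of the 8 non-clustered subgroups and of Pcdha hold the line, and those of Pcdhb and Pcdhg lie below it. Those of planar polarity partners, cluster regulators and cadherin repressors lie above it. With peaks at either gene end, however, the interval of the regulators holds the background. The partner lists were chosen with earlier results of these data known.

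Sequence features that the rule did not use were read from the RefSeq promoter table, which holds windows from 250 bases before to 50 after a start for 29 of the 44 non-clustered genes. Of these, 9 had a promoter peak and 20 did not. Medians of composition were taken over windows of 300 bases, and a gene with several starts has several windows. Median GC content was 63.0% in the 9 windows of genes with a peak (50.7 to 76.3). It was 59.3% in the 23 windows of those without (37.7 to 71.3). Over the windows of all protein-coding genes the medians were 65.7% with and 52.7% without a promoter peak. CpG dinucleotides numbered 23 and 12 at the median in the windows of family genes with and without a peak. Over the windows of all genes they numbered 25 and 7. The 20 genes without a promoter peak include 6 with an assigned peak elsewhere (Cdh23, Fat1, Fat3, Pcdh7, Pcdh8 and Pcdh10) and Dchs2, so they are not genes free of peaks. Fat3, whose start in the promoter table lay in its peak, had the highest GC content and CpG number of the 20, 71.3% and 35, and Dchs2 had 69.7% and 27.
The GC box core GGGCGG, on either strand, was found in 6 of the 9 genes with a promoter peak, at Cdh6, Cdh22, Cdh24, Celsr3, Pcdh18 and Pcdh19, and not at Celsr2, Fat4 or Pcdh15. It was found in 5 of the 20 without, Dchs2 among them. Over all protein-coding genes the shares were 80.6% with a promoter peak, 35.4% without and 49.2% together. The longer GGGGCGGGG, which holds the core, was in 2 of 9 and 4 of 20, against 34.6% of all genes with a promoter peak and 9.67% of those without. CACCC was in 5 of 9 and 13 of 20, against 71.4% and 57.4%. CACGCCC was in 0 of 9, which allows up to 33.6%, and in 4 of 20, against 20.1% and 9.0%. The E-box CAGGTG was in 2 of 9, Celsr2 and Pcdh15, and in 3 of 20, against 24.3% and 21.1%. The shares of all genes together were 17.3% for GGGGCGGGG, 61.7% for CACCC, 12.4% for CACGCCC and 22.1% for CAGGTG. With 9 genes the intervals are wide, for GGGCGG from 29.9 to 92.5%, and a match of letters is not evidence of a bound site. In 4 of the 9 genes, Cdh6, Fat4, Pcdh15 and Pcdh19, the peak lay outside the window searched.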

How the data were processed

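The deposited file is 1 annotated peak list on GRCm38 for all 8 libraries. PePr is the caller per the file name, with version and settings not given in the sources used. Tools listed without roles by the submitters' processing notes are BWA 0.7.17-r1188, HOMER 4.9.1, ChIPseeker 1.16.1 and FastQC 0.11.3. The authors computed for each peak a fold (linear ratio, ChSP over input), a score (a constant multiple of the fold, not used), a p-value and its adjusted form. The column headers do not name these values, which were recognised from their range and order. Width, in steps of 100 bp, distance to the start and assigned gene are deposited with each peak. Depth is unknown.

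Genes were matched by identifier to the RefSeq table of GRCm38.p6, whose coordinates share the build of the list. The table has 21900 protein-coding genes, and 1 family pseudogene was left out. Every family gene with an assigned peak is named, and partner lists by the highest promoter folds (up to 4) and by members lacking a promoter peak (up to 2, alphabetically). One gene of the partner lists is not reported here and enters no count. Members and lists were chosen with earlier results of these data known. No test was made, because the list has no value per library. Shares carry exact Clopper-Pearson 95% intervals and medians binomial rank intervals. Motif, distance and merging code was tested on simulated data. Promoter sequences are from RefSeq (GRCm38.p6). No entry was used for Cdh1, Cdh11 and Celsr1, which the rule for printed sequences also took. Software was matplotlib 3.10.9, scipy 1.17.1, numpy 2.4.6 and pandas 2.3.3 under Python 3.11.15.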

Additional observations from a re-analysis of the deposited data

How the results depend on the processing

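No paired analysis was possible because each peak has 1 value over all libraries, and for the same reason no library could be left out in turn. With the 4753 peaks of smallest p alone, the share of genes with a promoter peak fell to 7.92% for the family (8 of 101 genes), 18.2% for non-clustered genes and 0% for clustered genes, against 18.6% of all protein-coding genes, and the median width of member peaks rose to 1100 bp. The 9 genes lost were Cdh1, Cdh6, Cdh11, Celsr3, Dchs1, Pcdh1, Pcdh15, Pcdh18 and Pcdhac2. Within 3 kb of a start lay 82.1% of member peaks, against 84.1% of all peaks. Fewer peaks can only lower or keep a share of genes, and a wider limit can only raise or keep a share of peaks. For the rise in width the cause was not tested. The other 35 values under the alternatives run stayed within the interval of the value reported. Without the 5% widest peaks Cdh2, Cdh4 and Celsr1 lost their promoter peak (13 of 44 non-clustered genes, against 29.3% of all genes). Chosen after seeing the data were the split of the alternatives by non-clustered genes, peaks at either gene end for the partner lists and a peak within 1 kb of a start in the promoter table, which gave 10 of 29 genes with an entry, against 32.9%. The median promoter fold ranged from 19.7 to 22.6. Unknown depth and the lack of values per library limit every statement on a gene without a peak.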
